A study of Drosophila melanogaster with 12 samples.

Results

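Embryos in which the simGal4 driver expressed wild-type Dichaete (DichaeteWT) were set against embryos with GFP under that driver. The comparison rests on the 4 arrays whose labels name these groups, out of 12 arrays in the series, and 14485 probes were measured on each. All embryos were whole Drosophila melanogaster embryos, 3.5 to 4.5 h old and kept at 25 °C (stage 8 to 9), from mothers with simGal4 and fathers with a UAS transgene. The DichaeteWT embryos carried simGal4 and UAS Dichaete WT, and their controls carried simGal4 and UAS GFP, so the driver is common to both. The other arrays set EnRep and HMG-minus, the names of 2 further constructs under the same driver (the second is written HMG- in the labels), against GFP on 4 arrays each. The design text speaks of dominant negative constructs, whereas the titles of these 4 arrays call the construct wild type.

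Dichaete (gene symbol D) is a SoxB transcription factor that binds DNA through its HMG domain and acts in segmentation, in the neuroectoderm and in midline glia. In the midline it is known to work with the POU-domain factor Ventral veins lacking (vvl) on slit (sli), whose product repels growing axons through Robo receptors. SoxNeuro (SoxN) is the related SoxB factor that overlaps with it in the neuroectoderm. The simGal4 driver is active in midline cells, which are a small part of a whole embryo, and in such RNA a change in the number of cells and a change in RNA per cell cannot be told apart.

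Each array compared both RNAs in Cy3 and Cy5. Replicates 1 and 2 carried DichaeteWT in Cy3, and replicates 3 and 4 carried it in Cy5. Across probes, the log2 ratios of DichaeteWT over GFP correlated at 0.47 and 0.63 between the arrays of one dye orientation, and at -0.40 to -0.17 between arrays of opposite orientation. These correlations are across probes of 1 array pair each and have no test. The fit held a dye term shared by all 12 arrays, which was called for 4793 probes. Spots accepted in both channels made up 71.8% to 92.4% of the spots used on the 4 arrays. Replicate 2 stood apart in later genes: the median log2 ratio of 39 probes for later muscle and cuticle genes was 0.60 on it, and 0.05, -0.31 and -0.34 on replicates 1, 3 and 4.

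The targeted gene was read first. Its probe gave raw foreground intensities of 1236 in DichaeteWT against 1099 in GFP on replicate 1, 3401 against 1592 on replicate 2, 1902 against 1528 on replicate 3 and 2453 against 2742 on replicate 4. The normalised log2 ratios of D were 0.97, 1.09, -0.06 and -0.14 on replicates 1 to 4. Both arrays with DichaeteWT in Cy3 were high and both with DichaeteWT in Cy5 were slightly below 0. The dye term of this probe was -0.45, larger in size than that of 98.4% of probes, and with it taken out the 4 values were 0.53, 0.64, 0.39 and 0.31. Before the dye term was taken out, the SD of the 4 log2 ratios was 0.66. The SE given with each fitted ratio comes from the fit over the arrays of all constructs, after the dye term, not from the 4 DichaeteWT arrays alone. D rose by 0.47 ± 0.08 log2 (mean of 4 arrays ± SE of that fit), a 1.38-fold difference, with a limma adjusted p of 0.0208. That call was lost without replicate 1, 2 or 3 (adjusted p 0.129, 0.132 and 0.0571), with median centring in place of loess (0.114), with the replicate number as a block (0.0548), with no dye term (0.62), with only the 4 arrays compared (0.0746) and with a trended and robust variance (0.1). EnRep gave 0.37 and HMG-minus 0.19 for the same probe, and the differences of DichaeteWT from them were 0.10 ± 0.11 and 0.27 ± 0.11 (SE), with adjusted p of 0.997 and 0.903. Whether the probe lies within the part of the transcript that the transgene carries is not given in the sources used here.

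**Figure D1:**
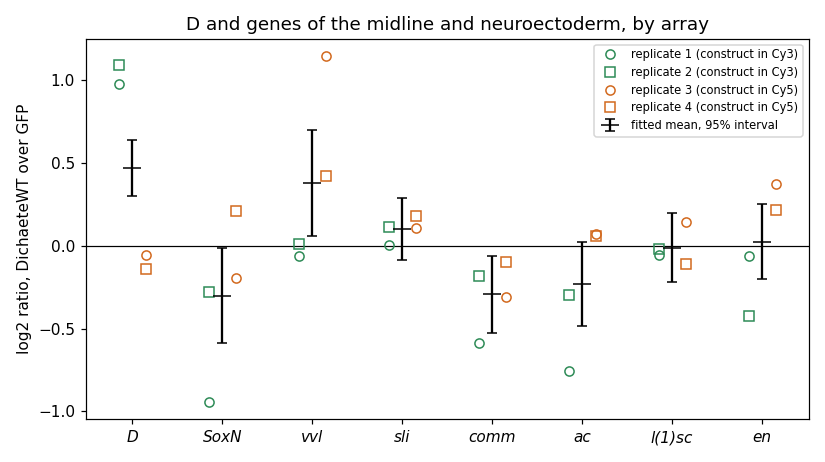
Log2 ratio of DichaeteWT over GFP (vertical axis) for D and 7 genes of the midline and neuroectoderm, with 1 point per array, green for DichaeteWT in Cy3 and orange for DichaeteWT in Cy5, and a black bar for the fitted mean with its 95% interval. D was at 0.97 and 1.09 on the Cy3 arrays and at -0.06 and -0.14 on the Cy5 arrays, and the other 7 genes were not called.

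Across the transcriptome, 55 probes rose and 70 fell at an adjusted p below 0.05, which is 0.38% and 0.483% of all probes and 0.863% together. The 55 rises came from 36 named genes, 18 reporters without a gene symbol and 1 with several symbols, and the 70 falls from 62 named genes (HnRNP-K by both of its probes) and 7 reporters without a symbol. The changes were small in size: the median rise was 0.54 and the median fall -0.49 on the log2 scale, and 2 rises and 4 falls exceeded 1. Those 2 rises were reporters without a gene symbol, whose spots were accepted in both channels on 0 and 1 of the 4 arrays. Spots of 45 of the 55 rises and 65 of the 70 falls were accepted in both channels on at least 3 arrays. Of the called probes, 48 rises and 66 falls lay on one side of 0 on every array. Over all probes this holds for 14.3%, with 7.19% above 0 and 7.08% below 0 on all 4 arrays. The calls were made on these same arrays, and calling favours probes with one sign, so this comparison is no separate check. The number of calls depended on single arrays, since it was 25, 16, 32 and 41 without DichaeteWT replicates 1 to 4. Leaving out EnRep replicate 1 or 3 gave 77 calls, leaving out EnRep replicate 4 gave 235, and leaving out HMG-minus replicate 3 or 4 gave 45 and 41. These arrays enter only the shared spread and dye term. With a trended and robust variance 6 probes were called, and 14 of the 125 kept their call in all 12 fits that left out 1 array.

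**Figure D2:**
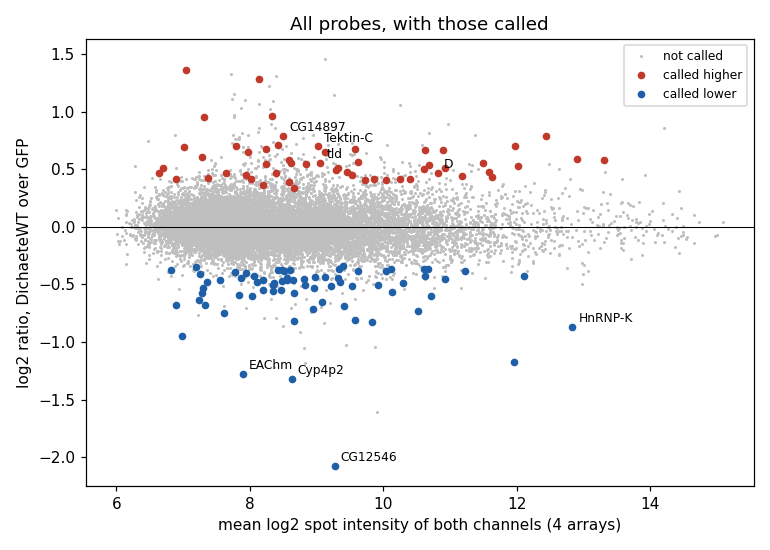
Log2 ratio of DichaeteWT over GFP (vertical axis) against the mean log2 spot intensity of both channels (horizontal axis) for all probes, with called rises in red, called falls in blue and the rest in grey. The called probes lean to the brighter side: 13 of the 55 rises and 19 of the 70 falls lie below the median intensity of all probes. The lowest point is CG12546 at -2.07.

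The largest fall belonged to CG12546, a gene known here by its annotation symbol. It had log2 ratios of -1.96, -2.30, -1.97 and -2.06, which is nearly the same value on every array in both dye orientations. The fitted ratio was -2.07 ± 0.24 (SE), 4.21-fold lower in DichaeteWT embryos, with an adjusted p of 0.0017. CG14453 and CG32453 lie 1 and 3 places from it among the annotated genes, and both fell as well, to log2 ratios of -0.95 and -0.75 (adjusted p 0.00142 and 0.00615). The spot of CG14453 was accepted in both channels on 2 of the 4 arrays. Among 94 called genes placed on the genome, 4 pairs lay within 3 places of each other, of which 3 come from these 3 neighbouring genes, and the fourth was CG4835 with Lkr, both higher. How many such pairs other genes would give was not tested.

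HnRNP-K, which binds RNA as a KH-domain hnRNP, fell by both of its probes. The brighter probe had -0.53, -0.77, -1.16 and -1.01 and a fitted ratio of -0.87 ± 0.09 (adjusted p 0.000567). The other had -0.97, -0.94, -1.29 and -1.47 and a fitted ratio of -1.17 ± 0.10 (adjusted p 0.000217). All 8 values were below 0, which the rule for naming genes required. The Cy5 arrays were lower than the Cy3 arrays for both probes. Of 8 genes with more than 1 probe and at least 1 call, this was the 1 gene with 2 called probes.

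Cyp4p2, a cytochrome P450, had -1.11, -1.24, -1.68 and -1.25, a fitted ratio of -1.32 ± 0.13 and an adjusted p of 0.000567. EAChm, named as an enhancer of the acetyltransferase Chameau, had -1.14, -1.41, -1.15 and -1.42, with a fitted ratio of -1.28 ± 0.15 (adjusted p 0.00142). Both were below 0 by more than 1 on every array. CG13991 followed with -0.56, -0.81, -0.91 and -0.97 (fitted -0.81 ± 0.07, adjusted p 0.000217).

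BOD1, the fly counterpart of a chromosome biorientation protein, had -0.32, -0.35, -1.07 and -1.02, with a fitted ratio of -0.69 ± 0.08 (adjusted p 0.00102). The 2 arrays with DichaeteWT in Cy5 were clearly lower than the 2 in Cy3. The naming rule required all 4 to be below 0. The mitochondrial transcription termination factor mTTF fell by 0.71 ± 0.10 log2 (adjusted p 0.00951), with -0.98, -0.71, -0.67 and -0.47 on the 4 arrays. CG13794, CG8960 and CG17478 completed the 12 largest falls at -0.82, -0.73 and -0.64. Of these 12 probes, 7 kept their call in every fit that left out 1 array (CG12546, Cyp4p2, EAChm, both of HnRNP-K, CG13991 and BOD1). Without replicate 2 the other 5 missed the threshold: CG13794 and CG17478 at an adjusted p of 0.0571, CG32453, CG8960 and mTTF at 0.0636. mTTF also missed it without replicate 1 (0.0803) or 3 (0.0523), and CG8960 without replicate 1 (0.0548). None of the 12 was called with a trended and robust variance, and all 12 were called with the deposited ratios and with median centring.

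**Figure D3:**
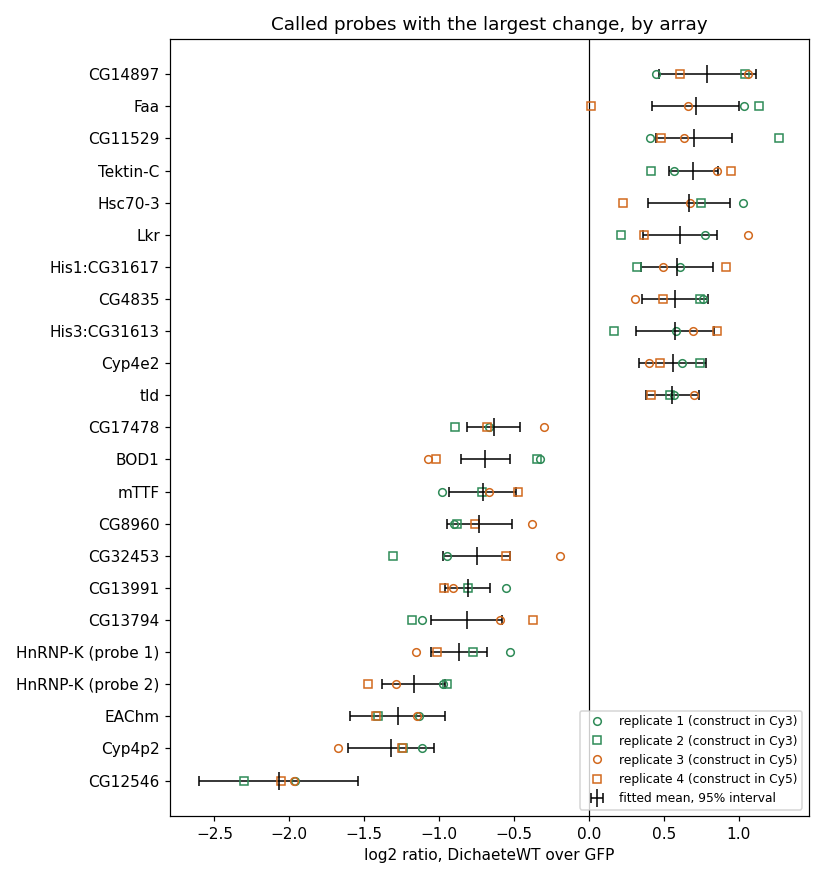
Log2 ratio of DichaeteWT over GFP (horizontal axis) for 11 of the 12 largest rises and the 12 largest falls that met the naming rule, with 1 symbol per array and a black bar for the fitted mean with its 95% interval. The falls reach -2.07 at CG12546 and the rises 0.79 at CG14897, and the widest spreads over the 4 arrays are those of Faa, between 0.01 and 1.13, and CG32453, between -1.31 and -0.19.

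Among the rises, Tektin-C, a tektin of ciliary and sperm-tail microtubules, had the smallest p of the named genes. It had 0.57, 0.42, 0.86 and 0.95, with a fitted ratio of 0.70 ± 0.08 (1.62-fold, adjusted p 0.00102). The Cy5 pair was higher, and the naming rule required all 4 arrays to be above 0. It was the 1 gene of these 11 rises that kept its call in every fit that left out 1 array.

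Tolloid (tld), the metalloprotease that cleaves Short gastrulation and so frees Dpp ligands, rose by 0.56 ± 0.08 log2 (1.47-fold, adjusted p 0.0103), with 0.57, 0.54, 0.70 and 0.42 on the 4 arrays. No dye split was visible in these values, and its dye term was -0.07 (adjusted p 0.294). Its adjusted p was 0.0548, 0.0593 and 0.0547 without replicates 1, 2 and 3. Sugarless (sgl), the UDP-glucose dehydrogenase needed for heparan sulfate, had 0.65, 0.50, 0.52 and 0.31, and a fitted ratio of 0.49 ± 0.08 (adjusted p 0.0129). Its adjusted p was 0.0951, 0.0704 and 0.058 without replicates 1, 2 and 3, and 0.059 with median centring.

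CG14897 had the largest rise among the named genes, with 0.45, 1.05, 1.07 and 0.61 (fitted 0.79 ± 0.15, adjusted p 0.0315). Its second probe gave 0.41, 0.89, 0.81 and 0.29 and a fitted ratio of 0.60, short of the threshold at 0.072. Replicates 2 and 3, of opposite dye orientation, were high for both probes. Without any 1 of the 4 DichaeteWT arrays, the first probe missed the threshold too, at adjusted p between 0.0621 and 0.149, and without HMG-minus replicate 3 or 4 it did so narrowly (0.0575 and 0.0597).

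Hsc70-3, the BiP chaperone of the endoplasmic reticulum, had 1.03, 0.75, 0.68 and 0.23 (fitted 0.67 ± 0.13, adjusted p 0.0315). Fumarylacetoacetase (Faa), the last enzyme of tyrosine breakdown, had 1.04, 1.13, 0.67 and 0.01 (fitted 0.71 ± 0.13, adjusted p 0.0315). All 8 values lay above 0, which the naming rule required, with replicate 4 at or near 0 for Faa. Both calls were lost without replicate 1, 2 or 3, at adjusted p between 0.122 and 0.181, and both just missed the threshold without HMG-minus replicate 3 or 4 (0.0547 to 0.0597).

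Lkr, the receptor of the neuropeptide leucokinin, had 0.78, 0.22, 1.06 and 0.37 (fitted 0.61 ± 0.11, adjusted p 0.0315), with replicates 1 and 3 high. Its spot was dim, at the 15.5 percentile of mean intensity, with a GFP foreground of 187 over a local background of 159 on replicate 1. With the deposited ratios Lkr was at 0.39 (adjusted p 0.101). CG11529 had 0.41, 1.27, 0.63 and 0.48 (fitted 0.70 ± 0.12, adjusted p 0.0208), with replicate 2 well above the others. The remaining genes of the 11 were CG4835 at 0.58, Cyp4e2 at 0.56 and the 2 histone genes described with their list. The 95% intervals of Cyp4e2, Lkr and CG11529 were 0.34 to 0.78, 0.36 to 0.85 and 0.45 to 0.95. Each of these 4 calls, from Lkr to Cyp4e2, was lost without DichaeteWT replicate 2, at adjusted p of 0.0704 for Lkr, 0.0872 for CG11529, 0.14 for CG4835 and 0.142 for Cyp4e2. Further DichaeteWT arrays on which they depended were replicates 1 and 3 for Lkr, 3 and 4 for CG11529, 1 and 4 for CG4835 and 1, 3 and 4 for Cyp4e2 (adjusted p 0.0568 to 0.185 without them). Lkr, CG4835 and Cyp4e2 also missed the threshold without HMG-minus replicate 3 or 4 (0.0503 to 0.0597). With the deposited ratios 6 of these 11 rises stayed below an adjusted p of 0.05, and with a trended and robust variance 2 did.

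Several called genes outside the naming rule have known functions, and they are named here after their values were seen. Cap-H2, a condensin II subunit, was at 0.55 (adjusted p 0.0157) by 1 probe and at 0.05 by its second probe, which was not called. Gar1, a protein of the H/ACA small nucleolar particles, rose by 0.51 (adjusted p 0.018), and Klp61F, the kinesin-5 of the mitotic spindle, by 0.45 (adjusted p 0.0308). The microsomal glutathione transferase Mgstl was at 0.45 by its called probe and 0.17 by the other. Vps11, a subunit of the vesicle tethering complexes HOPS and CORVET, rose by 0.51 (adjusted p 0.0428) with 0.46, 0.60, 0.41 and 0.58 on the arrays.

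Downward, Fnta, the alpha subunit of farnesyltransferase, had -0.85, -0.81, -0.52 and -0.24 (fitted -0.60 ± 0.08, adjusted p 0.00578), and it kept its call without each array in turn, though not with no dye term (0.367). Sps2, a selenophosphate synthetase, fell by 0.53 (adjusted p 0.0245), and ALiX, a partner of the ESCRT machinery, by 0.51 (adjusted p 0.0268). Atac2, an acetyltransferase of the ATAC complex, fell by 0.51 (adjusted p 0.018). Bap170, a subunit of the PBAP chromatin remodeller, fell by 0.36 (adjusted p 0.0389). Lsm10, part of the U7 particle that trims histone transcripts, fell by 0.34 (adjusted p 0.0308). The store-operated calcium channel Orai was at -0.46 by the called probe and 0.06 by the other, and the GABA receptor subunit Rdl at -0.41 by the called probe and -0.21 by the other. Apart from Fnta, each of the genes in these 2 accounts lost its call in at least 1 fit without 1 array, with adjusted p reaching 0.0704 for Cap-H2 and 0.193 for Vps11.

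The genes of the midline itself were read from a list of 18 genes of the midline primordium and midline glia, of which 13 were measured. None of the 13 probes was called by limma, against 0.863% of all probes, and 4 had an unadjusted p below 0.05 (30.8%, against 15.6% of all probes). Their median log2 ratio was 0.10 and 9 of 13 were above 0, against a median of 0.01 and 51.8% of all probes. Slit had 0.01, 0.12, 0.11 and 0.18, and a fitted ratio of 0.10 ± 0.09 with a 95% interval of -0.09 to 0.29. Commissureless (comm), which lowers Robo on axons that cross the midline, had -0.59, -0.18, -0.31 and -0.10 (fitted -0.29 ± 0.11, adjusted p 0.212). The slit values were all at or above 0 and those of comm all below 0, but neither met the threshold.

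Netrin-B (NetB), an attractant secreted by midline cells, had 0.36, 0.31, 0.06 and 0.23 (fitted 0.24, adjusted p 0.153). The receptor robo1 had 0.12, 0.26, 0.40 and 0.37 (fitted 0.29, adjusted p 0.3). Tl, the Toll receptor, which is also expressed in the midline, was at 0.32 (adjusted p 0.317), and wrapper, a surface protein of midline glia, at -0.14 (adjusted p 0.439). The first 3 were above 0 on all 4 arrays, and wrapper was below 0 on all 4. Of the markers set for midline primordium and glia, sim and rho were not analysed here, and the raw foreground of sli in GFP embryos was 304 to 685, against a local background of 81 to 133. Genes of midline neurons gave 0 calls over 15 probes, against 0.863% of all probes. Of them 2 had an unadjusted p below 0.05 (13.3%, against 15.6%), and the median of the list was 0.02. The highest was pale (ple), tyrosine hydroxylase, with 0.09, 1.00, 0.77 and -0.00 and a fitted 0.47 (adjusted p 0.169).

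Axon guidance genes of the midline gave 0 calls over 23 probes, against 0.863% of all probes, with 17 above 0 and a median of 0.10. An unadjusted p below 0.05 was reached by 6 (26.1%, against 15.6%). This list shares genes with that of the midline primordium and glia, among them NetB and comm, so they are not separate sets. Of SoxB and column genes, D was the 1 called member of 11 probes (9.09%, against 0.863% of all probes). An unadjusted p below 0.05 was reached by 5 of the 11 (45.5%, against 15.6%). SoxN had -0.94, -0.28, -0.20 and 0.21 (fitted -0.30 ± 0.13, adjusted p 0.298), with replicate 1 well below the rest. The Dichaete partner vvl had -0.06, 0.01, 1.14 and 0.42 (fitted 0.38 ± 0.15, adjusted p 0.246), with replicate 3 well above. The column gene ind was above 0 on all 4 arrays, at 0.28, 0.19, 0.35 and 0.38, and its fitted ratio of 0.30 had an adjusted p of 0.231.

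Proneural and neuroblast genes gave 0 calls over 17 probes, against 0.863% of all probes. At that share, 0 calls in a list this short says little about its genes. An unadjusted p below 0.05 was reached by 2 (11.8%, against 15.6% of all probes), and the median was -0.01. The achaete-scute genes ac and l(1)sc were at -0.23 ± 0.12 and -0.01 ± 0.10 (adjusted p 0.367 and 0.968). Miranda (mira), the adaptor that carries cell fate determinants into one daughter of a neuroblast division, had -1.38, -0.81, -0.12 and 0.14 (fitted -0.54, adjusted p 0.0719), low on the Cy3 arrays and near 0 on the Cy5 arrays. The sensory and neuroblast factor sens was at 0.26 (adjusted p 0.293). All 7 temporal identity genes of neuroblasts were above 0, with a median of 0.11 (-0.01 with median centring). D was the 1 called member (14.3%, against 0.863% of all probes), followed by cas at 0.17 (adjusted p 0.386). Of the 7, 1 had an unadjusted p below 0.05 (14.3%, against 15.6%).

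Notch pathway genes gave 0 calls over 15 probes, against 0.863% of all probes. Of them 2 had an unadjusted p below 0.05 (13.3%, against 15.6%), 12 were above 0 and the median was 0.09. E(spl)m5-HLH, a repressor of the Enhancer of split complex, had 0.29, 0.03, 0.66 and 0.30 (fitted 0.32, adjusted p 0.151), and E(spl)m4-BFM of the same complex was at 0.26 (adjusted p 0.205). In the EGF receptor pathway 1 of 20 probes had an unadjusted p below 0.05 (5%, against 15.6% of all probes). The 1 call (5%, against 0.863%) was kek1, an inhibitor of the receptor. It had -0.29, -0.34, -0.52 and -0.57 on the 4 arrays, all below 0, and a fitted ratio of -0.43 ± 0.09 (adjusted p 0.0428). That call was lost without any 1 of the DichaeteWT arrays (adjusted p 0.105 to 0.181), without EnRep replicate 1, 2 or 3 or HMG-minus replicate 1, 3 or 4 (0.0567 to 0.0759), and under other alternatives, among them the deposited ratios (0.136) and no dye term (0.25).

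Patterning genes of the trunk were close to GFP. No segment polarity (10 probes), pair-rule (7 probes) or Hox (6 probes) gene was called, against 0.863% of all probes. None had an unadjusted p below 0.05, against 15.6% of all probes, and the medians were -0.02, -0.01 and -0.07. Engrailed (en), which marks posterior compartments, had -0.06, -0.43, 0.38 and 0.21 (fitted 0.03 ± 0.10, adjusted p 0.927), split by dye, and its sign turned under several alternatives. Of 24 probes for dorsal ectoderm, amnioserosa and the Dpp pathway, 7 were above 0, the median was -0.09, and tld was the 1 call (4.17%, against 0.863% of all probes). An unadjusted p below 0.05 was reached by 1 of the 24 (4.17%, against 15.6%). Mesoderm genes had 0 calls over 9 probes, against 0.863% of all probes. Of them 1 had an unadjusted p below 0.05 (11.1%, against 15.6%), and the median was -0.10. Twist (twi), the mesodermal master regulator, was below 0 on all 4 arrays, at -0.60, -0.10, -0.89 and -0.32 (fitted -0.48, adjusted p 0.0901).

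Histone genes stood highest of the lists by median. All 8 probes were above 0, with a median of 0.38, and 2 were called, which is 25% of a list of 8 against 0.863% of all probes. An unadjusted p below 0.05 was reached by 5 of the 8 (62.5%, against 15.6%). The linker histone His1:CG31617 had 0.61, 0.32, 0.49 and 0.92 (fitted 0.59 ± 0.11, adjusted p 0.0315) and His3:CG31613 had 0.58, 0.17, 0.70 and 0.86 (fitted 0.58 ± 0.12, adjusted p 0.0475). Replicate 2 was the lowest array for both, and all values were above 0, which the naming rule required. In EnRep the list's median was 0.70, with His1:CG31617 at 0.75 and His3:CG31613 at 0.82 (adjusted p 0.00791 and 0.00795). In HMG-minus the median was 0.21, with these genes at 0.26 and 0.20, neither called. For neither gene was a difference of DichaeteWT from EnRep or HMG-minus called (adjusted p 0.903 to 0.997). The other core histones His4:CG31611, His2B:CG17949 and His2A:CG31618 were at 0.45, 0.41 and 0.34, with adjusted p of 0.0751, 0.121 and 0.2. Histone genes are repeated many times in the genome with near-identical sequence, so a probe cannot tell the copies apart. With median centring the list's median was 0.22, and neither gene was called (adjusted p of His1:CG31617 0.0516, of His3:CG31613 0.126). The call of His1:CG31617 was also lost without DichaeteWT replicate 1, 2 or 4 (up to 0.191) and marginally without EnRep replicate 1 or HMG-minus replicate 3 or 4 (up to 0.0597). That of His3:CG31613 was lost without any 1 of the DichaeteWT arrays (up to 0.238), of EnRep replicates 1 to 3 and of HMG-minus replicates 3 and 4 (up to 0.0818). With no dye term His1:CG31617 and His3:CG31613 were at 0.261 and 0.278.

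DNA replication genes had 2 falls among 16 probes (12.5%, against 0.863% of all probes called in either direction). Cdc45, part of the replicative helicase, had -0.34, -0.61, -0.52 and -0.55 (fitted -0.51 ± 0.09, adjusted p 0.0277). Orc5, a subunit of the origin recognition complex, had -0.37, -0.33, -0.43 and -0.34 (fitted -0.37 ± 0.07, adjusted p 0.0427), nearly equal on all arrays. The list as a whole had 7 of 16 probes above 0 and a median of -0.04 (-0.17 with median centring). Of the 16, 5 had an unadjusted p below 0.05 (31.25%, against 15.6% of all probes). The 2 calls were lost without any 1 of the 4 DichaeteWT arrays or HMG-minus replicate 3 or 4 (adjusted p 0.0503 to 0.167), and that of Orc5 also without EnRep replicate 1, 2 or 3 (0.0549 to 0.0664). With no dye term Cdc45 and Orc5 were at 0.0747 and 0.154. Mitotic cyclins and regulators gave 0 calls over 11 probes, against 0.863% of all probes. Of them 1 had an unadjusted p below 0.05 (9.09%, against 15.6%). The smallest p was that of the APC activator fzy at -0.23 (adjusted p 0.139).

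Of 90 probes for cytochrome P450 genes, 2 rose, 1 fell, 47 were above 0 and the median was 0.01, with 18 at an unadjusted p below 0.05 (20%, against 15.6% of all probes). The calls were 3.33% of the list, against 0.863% of all probes. Beside Cyp4p2, Cyp4e2 had 0.62, 0.74, 0.40 and 0.47, and Cyp317a1 had 0.63, 0.68, 0.25 and 0.12 (fitted 0.42, adjusted p 0.0389). The call of Cyp317a1 was lost without any 1 DichaeteWT array (adjusted p 0.0686 to 0.191), without EnRep replicate 1, 2 or 3 or HMG-minus replicate 3 or 4 (0.0543 to 0.0689), and under other alternatives, among them the deposited ratios (0.0801) and no dye term (0.266). Oxidative phosphorylation genes had 56 of 77 probes above 0 and a median of 0.11 (0.03 with median centring), with 0 calls and 13 at an unadjusted p below 0.05 (16.9%). The cytochrome c oxidase subunit COX5B was at 0.33, 0.28, 0.43 and 0.37, and its fitted ratio of 0.35 had an adjusted p of 0.0969. Cytosolic ribosomal protein genes had 0 calls over 52 probes and a median of 0.09 (0.01 with median centring). An unadjusted p below 0.05 was reached by 7 (13.5%, against 15.6% of all probes).

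Of 68 probes for mitochondrial ribosomal protein genes, 5 had an unadjusted p below 0.05 (7.35%, against 15.6% of all probes), and the median was -0.00. The list had 1 call (1.47%, against 0.863%). It was mRpS17, a small subunit protein, with -0.52, -0.63, -0.37 and -0.70 (fitted -0.56 ± 0.08, adjusted p 0.00739), and its adjusted p was 0.0599 and 0.0704 without replicates 1 and 2. Heat shock and chaperone genes had 1 call among 15 probes (6.67%), Hsc70-3, and 2 at an unadjusted p below 0.05 (13.3%). Their median was 0.05. Tyrosine breakdown and pterin genes had 1 call among 11 probes (9.09%), Faa, and 4 at an unadjusted p below 0.05 (36.4%). Their median was 0.25. That median was split by dye, at 0.38 and 0.57 on replicates 1 and 2 and 0.05 and -0.02 on replicates 3 and 4. Of the hnRNP and SR family, HnRNP-K gave both calls among 21 probes (9.52%), and the median was 0.00 (-0.12 with median centring). In that family 6 probes had an unadjusted p below 0.05 (28.6%).

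Genes of other cells and stages were read in the same way. Haemocyte (16 probes), germ cell (10 probes) and cleared maternal transcripts (12 probes) gave 0 calls by limma, against 0.863% of all probes. In that order 0, 2 and 2 had an unadjusted p below 0.05 (0%, 20% and 16.7%, against 15.6%). The medians were 0.02, 0.08 and 0.02. Over the 4 arrays the median of cleared maternal transcripts ran from -0.22 on replicate 3 to 0.21 on replicate 1, and that of haemocyte genes from -0.27 on replicate 4 to 0.20 on replicate 2. Testis genes had Tektin-C as the 1 call among 29 probes (3.45%, against 0.863% of all probes) and a median of 0.05. Of the 29, 2 had an unadjusted p below 0.05 (6.9%, against 15.6%). Later muscle and cuticle genes gave 0 calls over 39 probes, 2 with an unadjusted p below 0.05 (5.13%, against 15.6% of all probes), and a median of 0.04. The cuticle gene TwdlD had -1.42, 0.88, -2.39 and -1.79, with replicate 2 alone above 0. The part of these differences between arrays in the called genes was not tested beyond the fits that left out 1 array.

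**Figure D4:**
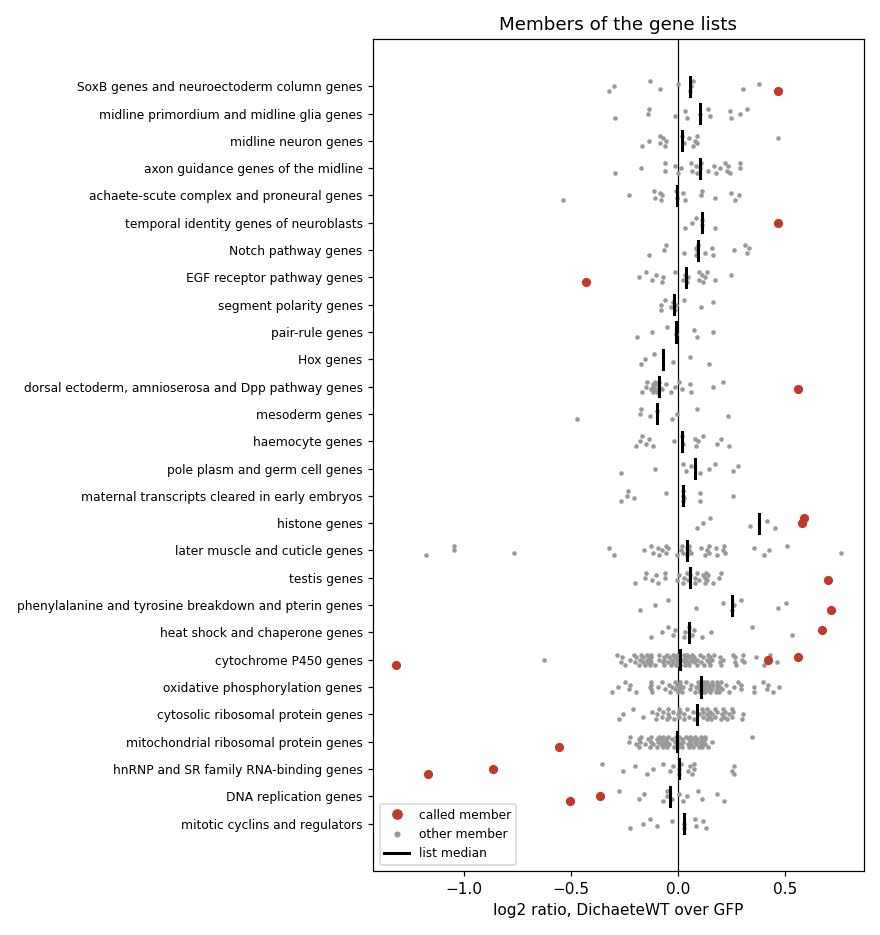
Log2 ratio of DichaeteWT over GFP (horizontal axis) for every probe of 28 gene lists, with called members in red, other members in grey and a black bar at each list's median. The histone list has the highest median, 0.38, while most called members, such as Cyp4p2, HnRNP-K and tld, lie away from the bulk of their lists.

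The same fit tested the DichaeteWT differences from GFP against those of the other constructs. DichaeteWT minus EnRep was called for 3 probes (0.0207%), 1 higher (0.0069%) and 2 lower (0.0138%), with 646 at an unadjusted p below 0.05. DichaeteWT minus HMG-minus was called for 0 probes by limma, with 764 at an unadjusted p below 0.05, although 2 were called without EnRep replicate 4. The median SE of such a difference was 0.14 log2, against 0.10 for DichaeteWT over GFP. The labels do not say whether the arrays of different constructs shared GFP RNA, so the values are given side by side and their likeness was not scored.

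The pickpocket channel gene ppk20 was at 0.17 in DichaeteWT and 2.33 in EnRep, a difference of -2.15 ± 0.18 (adjusted p 0.000398). Its DichaeteWT arrays were at 0.12, 0.32, 0.02 and 0.24. RFeSP, the Rieske iron-sulfur protein of the cytochrome bc1 complex, was at -0.23 in DichaeteWT and 1.69 in EnRep, a difference of -1.92 ± 0.17 (adjusted p 0.000429), though its spot was accepted in both channels on 1 of the 4 DichaeteWT arrays. Neither gene was called in DichaeteWT over GFP (adjusted p 0.544 and 0.388). The 1 higher probe, reporter 1000039807, has no gene symbol and is named here after its values were seen. It had 0.75, 0.59, 1.49 and 1.01 in DichaeteWT and -0.41, -0.38, -0.15 and 0.06 in EnRep. All DichaeteWT values exceeded all EnRep values, and the difference was 1.18 ± 0.14 (adjusted p 0.00958). HMG-minus was at 0.54 for this reporter, a difference of 0.42 ± 0.14 (adjusted p 0.857).

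Most of the largest falls were also low in the other constructs. The brighter HnRNP-K probe was at -0.87 in DichaeteWT, -0.84 in EnRep and -0.98 in HMG-minus, and the other at -1.17, -1.07 and -1.18 in the same order. Cyp4p2 was at -1.32 in DichaeteWT, -1.07 in EnRep and -1.41 in HMG-minus, and EAChm at -1.28, -1.0035 and -1.43. CG13794 was at -0.82, -0.80 and -1.07 in that order. CG8960 was at -0.73 in DichaeteWT and -0.65 in EnRep, but at -0.08 in HMG-minus. Among the rises, CG14897 was at 0.79 in DichaeteWT, 0.89 in EnRep and 1.09 in HMG-minus, and Faa at 0.71, 0.63 and 0.74. None of these differences between constructs was called.

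Of the genes called in DichaeteWT over GFP, 4 of the named rises lay near 0 in the other constructs, again without a called difference. For tld, DichaeteWT was at 0.56, EnRep at -0.02 and HMG-minus at -0.00, and the differences of 0.58 (95% interval 0.33 to 0.84) and 0.56 (0.31 to 0.81) had adjusted p of 0.301 and 0.458. CG11529 was at 0.70, 0.06 and 0.02 in DichaeteWT, EnRep and HMG-minus, and Lkr at 0.61, -0.01 and 0.09 in the same order. Cyp4e2 was at 0.56 in DichaeteWT, 0.14 in EnRep and -0.03 in HMG-minus. None of these 6 differences met the threshold, the adjusted p lying between 0.622 and 0.997.

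Tektin-C was at 0.70 in DichaeteWT, 0.14 in EnRep and 0.29 in HMG-minus, with differences of 0.56 ± 0.11 and 0.41 ± 0.11 (adjusted p 0.245 and 0.685). CG12546 was at -2.07, -1.34 and -0.49 in DichaeteWT, EnRep and HMG-minus, and the difference from HMG-minus was -1.58 ± 0.34, with a 95% interval of -2.33 to -0.83 and an adjusted p of 0.458. The odorant-binding protein gene Obp57a had the smallest p against HMG-minus among the named genes, at 0.19 in DichaeteWT and -0.62 in HMG-minus, a difference of 0.82 ± 0.13 (adjusted p 0.146). For CG13991 the DichaeteWT value of -0.81 stood beside -0.82 in EnRep and -0.83 in HMG-minus, and the 95% intervals of the differences were -0.20 to 0.23 and -0.20 to 0.24.

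**Figure D5:**
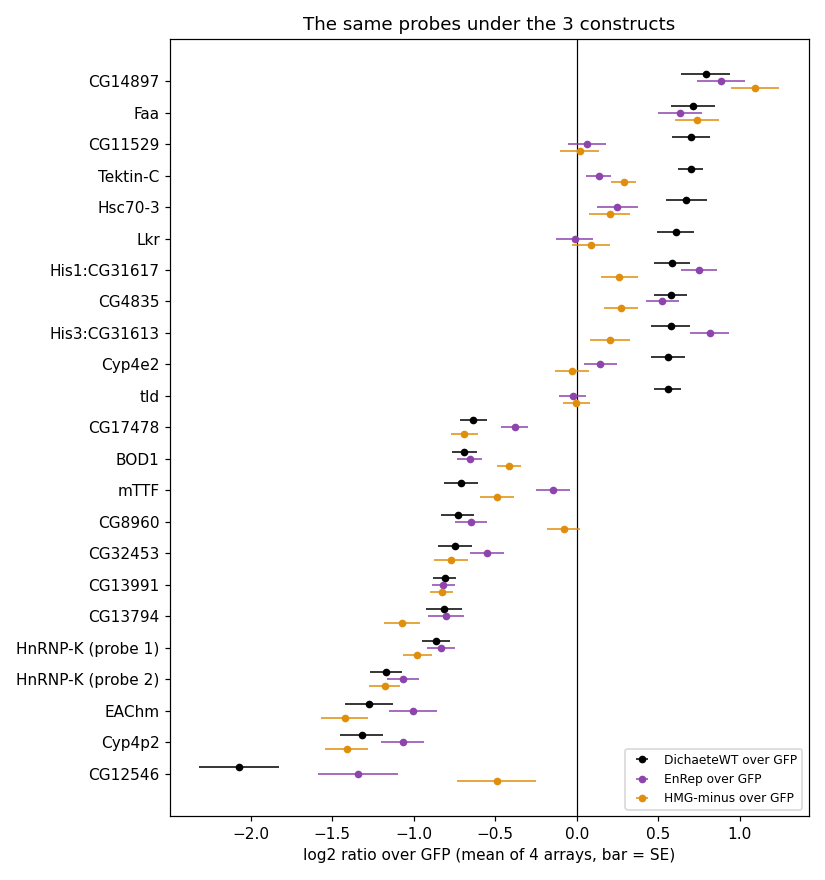
Log2 ratio over GFP (horizontal axis) of 11 of the 12 largest rises and the 12 largest falls of DichaeteWT. DichaeteWT is in black, EnRep in purple and HMG-minus in orange. Points are means of 4 arrays. Bars are the SE from the fit over all 12 arrays, the same for the 3 constructs at each probe. The probes were chosen by their DichaeteWT values. For tld DichaeteWT lies at 0.56 with the other constructs at -0.02 and -0.00, while for CG13991 all 3 constructs lie between -0.83 and -0.81.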

How the data were processed

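Per the file headers, the deposited spot files give, for each channel, the median foreground intensity and local background intensity in Cy3 and Cy5, quantified with Dapple and not normalised. The authors also deposited a table of log2 ratios per spot, construct over GFP. limma is named in the submitters' processing notes, and the background correction and normalization behind those log2 values are not given in the sources used here. Their column medians for DichaeteWT were -0.0023 to -6.5e-05, so each column was centred near 0.

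Intensities were taken through limma 3.58.1 in R 4.3.3, by normexp background correction with an offset of 50, fitted on all 18240 spots of an array, then global loess on the 14569 spots in the value table. The other 3671 spots were not analysed here. Ratios were turned to construct over GFP and spots of one probe averaged, giving 14485 probes. Of these 12574 carry 1 gene symbol of the platform annotation, 96 several and 1815 none, and 11928 matched the RefSeq gene table (Release 6 plus ISO1 MT), used for names and gene order. The linear model gave a mean per construct and 1 dye term over all 12 arrays (8 residual and 4.64 prior degrees of freedom), with empirical Bayes variances, two-sided p-values and Benjamini-Hochberg adjustment over all probes at 0.05. Ratios and differences are log2, and folds are 2 to that power. The design text states 4 independent biological replicates. The number of arrays limits the precision, and the model was tested on simulated data.

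Genes named are, among called probes with 1 symbol, the same sign on all 4 arrays and a spot accepted in both channels on at least 3, the 12 largest rises and falls. Added are the 5 largest per direction of each difference between constructs (filled by smallest p), D, SoxN, vvl, sli, comm, ac, l(1)sc and en, and for each list its called members or otherwise the 3 with the smallest p. Not every gene so chosen is reported, and 1 of the 12 largest rises is not reported here. ind, Tl, wrapper, cas, CG14453 and the uncalled histone genes were added from the lists or neighbours after their values were seen. The comparison, lists and rule were chosen with earlier results of these data known. Alternatives changed the background, offset, normalization, filters, dye term, arrays, block, weights and variance, started from the deposited ratios, or dropped 1 array at a time. Fitting normexp on the value table's spots alone was chosen after seeing the data.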

Additional observations from a re-analysis of the deposited data

Results flagged for a closer look

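Reporter 1000039807 differed between constructs by the test of the difference, DichaeteWT minus EnRep being 1.18 log2 (adjusted p 0.00958). By the same test RFeSP differed by -1.92 (adjusted p 0.000429) and ppk20 by -2.15 (adjusted p 0.000398). Among 93 probes of genes chosen by the naming rule or described in the text, 1 had an array far from the other 3: exu, a maternal RNA localisation gene, was at -0.427 on DichaeteWT replicate 1 and at -0.18, -0.19 and -0.15 on replicates 2 to 4. Its gap was 0.852 of the range, above Dixon's critical value for 4 samples, which chance exceeds in about 1 in 20 groups.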

How the results depend on the processing

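The count of 125 calls for DichaeteWT over GFP moved to 466 with print-tip loess, 276 with array weights, 25 with no dye term, 63 with only the 4 arrays compared, 65 with the deposited log2 ratios (19 higher, 46 lower) and 6 with a trended and robust variance. It ran from 16 to 235 when 1 array was left out. Median centring gave 112 calls, 30 higher and 82 lower, against 55 and 70. No background correction gave 171, an offset of 16 gave 99, leaving out the dimmest 25% of probes 118, accepted spots alone 95, and normexp on the value table's spots alone 121. The replicate number as a block in place of the dye term gave 39 calls. Same-numbered arrays of different constructs correlated between -0.64 and 0.24 in their residuals. Of these 12 pairs 2 lay above 0.1, and 0 of 12 arrays correlated best with an array of its own number. Same-numbered arrays always share a dye orientation, and the fit makes residuals sum to 0 within each orientation, which lowers these correlations. The check therefore cannot decide whether the numbers mark pairs, and the main fit did not take them as pairs. DichaeteWT minus EnRep gave 5 calls with print-tip loess, 1 with a trended and robust variance, 0 with accepted spots alone (480 at an unadjusted p below 0.05) and 2 to 4 without 1 array, against 3. DichaeteWT minus HMG-minus gave 3 with print-tip loess, 2 with array weights and 0 to 2 without 1 array, against 0. The sign of en turned with print-tip loess (-0.021), median centring (-0.10), the deposited ratios (-0.024) and array weights (-0.013). Without 1 array en ran from -0.030 to 0.12, turning without DichaeteWT replicate 1 or 3, and l(1)sc ran from -0.11 to 0.049, turning without DichaeteWT replicate 1 or 2. Where not set by fewer arrays or probes, the cause was not tested. Of the 125 called probes, 2 kept their call in all 12 fits without 1 array and in 12 other alternatives (all but normexp on the table alone): Tektin-C and reporter 1000039807.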
